A study of Drosophila melanogaster with 17 samples.

Results

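The genes described here encode the parts that hold the midgut epithelium to its basement membrane. They are the integrin subunits mys, mew, if and scb, the laminin chains LanA, LanB1 and LanB2, the collagen IV chains vkg and Col4a1, and the perlecan gene trol. They were found in the expression table by FlyBase identifier, and all 10 were present among 17489 features. For scb and trol the identifier in the table is an older one, and its symbol was taken from a gene table that accompanies the study.

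A basement membrane is a sheet of secreted protein under the cells of an epithelium. Laminin, a trimer of an alpha, a beta and a gamma chain, assembles first on cell surfaces, collagen IV then forms a crosslinked network, and perlecan, a large heparan sulfate proteoglycan, is woven into it. Integrins are heterodimers of an alpha and a beta subunit that bind this sheet from the cell side and connect it through talin and its partners to actin. In the fly midgut the intestinal stem cells lie on the basement membrane beside the visceral muscle, and integrin adhesion is known to be needed for their maintenance.

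RNA was sequenced in 17 libraries of green fluorescent cells sorted from dissociated Drosophila midgut at adult stage day 3, about 10000 cells per library, with amplification of the RNA before library preparation. The wild type libraries were intestinal progenitors (n = 5), enteroendocrine cells (EE, n = 3), which secrete peptide hormones, and a group titled EC (n = 3). The other libraries were progenitors in which Sox100B, a SoxE transcription factor gene, was depleted by RNA interference (Sox100B-RNAi, n = 3) and progenitors labelled as overexpressing it (Sox100B-OE, n = 3). The study used such profiles to choose marker genes of each cell type. It names esg-Gal4 for progenitors, ProsV1-Gal4 for EE and Myo31DF-Gal4 for EC as the drivers of the fluorescent label, but the labels of these libraries name no driver, sex or pooling of guts, and no control construct is given for the Sox100B groups. For the EC group the title and the cell type label read enterocyte and the source name reads enteroblast, so these are called the libraries labelled EC.

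Depth was inferred from the steps between low values and came to 24.0 to 59.2 M reads per wild type library and 17.4 to 29.4 M reads per Sox100B library. Replicates correlated at a Pearson's r of 0.930 to 0.985 across genes, which are not independent replicates. The deposited unit is RPKM, reads per kilobase of gene, divided by library size. Its read total was not made alike in all columns. The share of implied reads that annotated genes account for was 63.5 to 77.7% among wild type columns but 95.9 to 96.2% among Sox100B columns, and mitochondrial genes took 0% and 16.9 to 31.4% of that share. For any difference between Sox100B libraries and wild type progenitors, the treatment and this difference in processing therefore cannot be told apart. Sox100B itself was at 69.7 to 183 RPKM in progenitors, 20.3 to 34.4 in Sox100B-RNAi and 85.5 to 144 in Sox100B-OE. The progenitors were at 77.3, 69.7 and 97.9 RPKM in replicates 1 to 3 and at 174 and 183 in replicates 4 and 5. The overexpression group, at 105, 85.5 and 144, lay within this whole range, with replicates 1 and 3 above progenitor replicates 1 to 3. Read totals differ between these columns, and whether the transgene is counted is not given. Its libraries are called the libraries labelled Sox100B-OE, since the values do not show the rise that the label states. The summed level of 6 enteroendocrine markers was 68317 to 79436 RPKM in EE and at most 13515 elsewhere, and that of 5 enterocyte markers was 519 to 1909 RPKM in the libraries labelled EC against 117 to 277 in progenitors. Of those 5, Amy-p and alphaTry were above all progenitor libraries, nub and Jon65Aiii overlapped them, and Myo31DF was below them (13.6 to 38.6 against 49.7 to 103 RPKM).

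The 10 genes covered a wide range of levels. In progenitors the mean was 120.3 ± 30.0 RPKM (SD, n = 5) for mys, 96.2 ± 10.3 for scb, 42.3 ± 1.85 for LanA, 27.4 ± 3.79 for LanB1, 24.0 ± 11.1 for mew, 12.8 ± 3.26 for trol and 11.1 ± 1.57 for LanB2. Both collagen IV chains were low there, at 1.38 ± 1.29 RPKM for Col4a1 and 0.108 ± 0.0747 for vkg, and so was if at 0.287 ± 0.203. Per unit of length the beta integrin and the alpha subunit scb were thus the most abundant of the set, and the collagen chains were the lowest of the secreted components. The lowest and highest values of each gene over all 17 libraries are visible in the plot of levels by library.

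**Figure D1:**
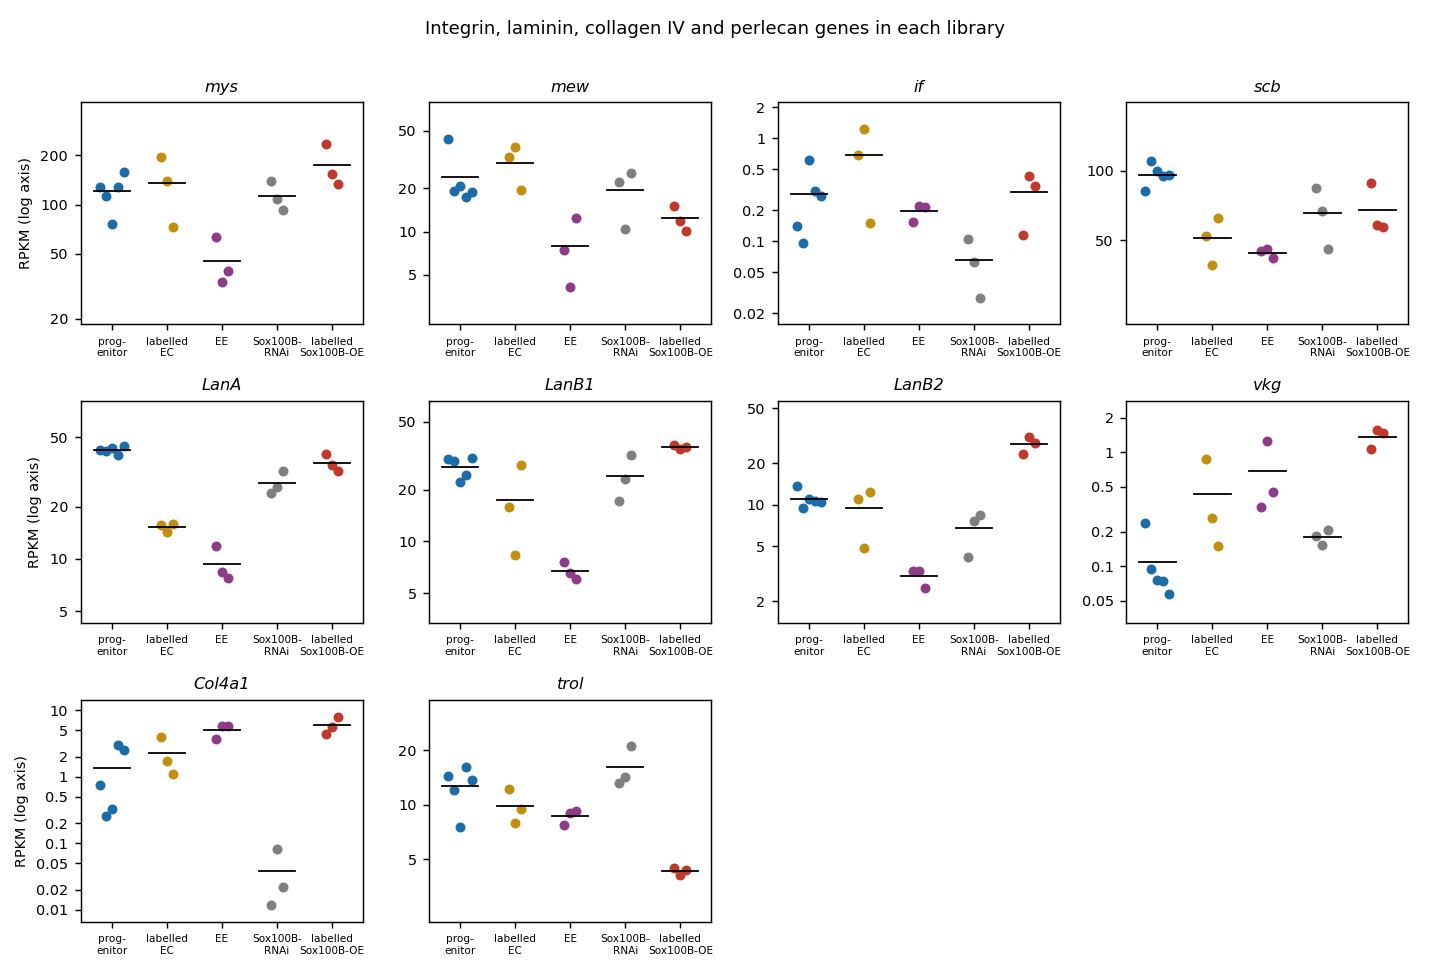
RPKM of each of the 10 genes (log axis, a separate range in each panel) in the 17 libraries by group; each point is 1 library and the black line is the group mean. LanA, LanB1 and LanB2 are lowest in EE, Col4a1 falls to 0.0121 to 0.0816 RPKM in Sox100B-RNAi, and trol is lowest in the libraries labelled Sox100B-OE.

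Among the receptors, mys encodes the common beta subunit, which pairs with each of the alpha subunits studied here (FBgn0004657, chromosome X, 8061645 to 8070237, plus strand; all positions are BDGP6 as annotated in Ensembl 115). It was at 127, 113, 75.8, 127 and 159 RPKM in the progenitor libraries, at 195, 139 and 73.0 in those labelled EC and at 62.9, 33.5 and 39.4 in EE. In Sox100B-RNAi it was at 139, 108 and 92.4 RPKM, and in the libraries labelled Sox100B-OE at 234, 154 and 134. All 3 EE libraries were below every other library, and the other 4 groups overlapped.

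The alpha subunit mew, the PS1 chain, forms a laminin receptor with mys (FBgn0004456, X, 13214409 to 13258490, minus strand). Its values were 43.8, 19.1, 20.8, 17.5 and 18.8 RPKM in progenitors, 32.8, 38.5 and 19.3 in the libraries labelled EC and 7.46, 4.10 and 12.3 in EE. They were 22.1, 10.5 and 25.6 RPKM in Sox100B-RNAi and 15.1, 11.9 and 10.1 in the libraries labelled Sox100B-OE. Progenitor replicate 1 stood far above the other 4 progenitor libraries, and in the order of group means (labelled EC, progenitor, Sox100B-RNAi, labelled Sox100B-OE, EE) each group overlapped the next.

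The alpha subunit scb, the PS3 chain, is known from dorsal closure of the embryo and from memory formation (FBgn0003328, 2R, 15248784 to 15258498, plus strand). It was at 81.2, 109.8, 99.9, 94.5 and 95.5 RPKM in progenitors, 52.1, 38.9 and 62.5 in the libraries labelled EC and 44.9, 45.5 and 41.8 in EE. The Sox100B-RNAi libraries gave 83.9, 66.7 and 45.7 RPKM and those labelled Sox100B-OE 88.3, 58.0 and 56.9. Progenitors were above all EE libraries and all libraries labelled EC, and the order of means ran from progenitors through labelled Sox100B-OE, Sox100B-RNAi and labelled EC to EE, with an overlap at every step.

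The alpha subunit if, the PS2 chain, is best known from muscle, where it binds matrix ligands at attachment sites (FBgn0001250, X, 16752189 to 16783434, minus strand). It ranged only from 0.0283 to 1.24 RPKM, or 5 to 193 implied reads per library, and it reached 1 RPKM in a single library, labelled EC replicate 2. It passed the filter on low values in no comparison, so it was not tested. The summed level of 10 visceral muscle genes was 3.05 to 14.2 RPKM in the libraries labelled EC, 7.84 to 11.3 in EE, 3.90 to 6.02 in those labelled Sox100B-OE, 1.39 to 3.12 in progenitors and 0.825 to 1.02 in Sox100B-RNAi. Among them up, a troponin T gene, reached 8.89 RPKM and Mhc, the myosin heavy chain gene, at most 0.174, and the part of muscle RNA in the values of if was not tested.

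Of the laminin chains, LanA is one of 2 alpha chains of the fly (FBgn0002526, 3L, 6203831 to 6218022, minus strand). It was at 42.3, 41.6, 43.2, 39.8 and 44.8 RPKM in progenitors, 15.7, 14.3 and 15.9 in the libraries labelled EC and 11.9, 8.45 and 7.74 in EE. Sox100B-RNAi gave 23.9, 25.8 and 32.2 RPKM and the libraries labelled Sox100B-OE 40.3, 34.9 and 32.2. The 3 wild type groups were fully separated in the order progenitor, labelled EC, EE, and both Sox100B groups lay between progenitors and the libraries labelled EC, the upper one overlapping the progenitors. Groups did not overlap for 39.4% of all features tested between labelled EC and progenitors, 50.4% between EE and progenitors and 59.9% between EE and labelled EC.

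LanB1 is the only beta chain of the fly (FBgn0261800, 2L, 7811438 to 7820771, plus strand). Its levels were 30.2, 29.4, 22.1, 24.5 and 30.5 RPKM in progenitors, 16.0, 8.30 and 27.9 in the libraries labelled EC, 7.63, 6.54 and 6.04 in EE, and 17.2, 23.0 and 31.8 in Sox100B-RNAi. The libraries labelled Sox100B-OE held 36.6, 34.7 and 35.4 RPKM. These were the highest of all 17 and the EE libraries the lowest, while the 3 groups between them overlapped.

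LanB2 is the only gamma chain (FBgn0267348, 3L, 9614914 to 9623980, plus strand). It was at 13.7, 9.50, 10.9, 10.7 and 10.5 RPKM in progenitors, 11, 4.89 and 12.4 in the libraries labelled EC and 3.30, 3.30 and 2.52 in EE. It was at 4.22, 7.68 and 8.43 RPKM in Sox100B-RNAi and at 23.2, 31.2 and 27.9 in the libraries labelled Sox100B-OE. The last group was clear of all other libraries above and EE was clear of all others below, and every Sox100B-RNAi library was under the lowest progenitor library.

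The collagen IV chains vkg (alpha2, FBgn0016075, 2L, 5012144 to 5028191, minus strand) and Col4a1 (alpha1, FBgn0000299, 2L, 5029609 to 5037279, plus strand) are transcribed away from each other, with 1417 bases between the annotated genes. Much of the collagen IV of the fly is made by fat body and hemocytes, the blood cells. vkg was at 0.240, 0.0950, 0.0753, 0.0742 and 0.0574 RPKM in progenitors (9 to 42 implied reads), 0.871, 0.266 and 0.150 in the libraries labelled EC, 0.329, 1.26 and 0.445 in EE and 0.183, 0.155 and 0.209 in Sox100B-RNAi. The libraries labelled Sox100B-OE held 1.07, 1.56 and 1.49 RPKM, 159 to 181 implied reads each. They overlapped EE only, and EE was above all progenitor libraries.

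Col4a1 was at 0.753, 0.261, 0.324, 2.97 and 2.58 RPKM in progenitors, where replicates 4 and 5 were severalfold above replicates 1 to 3. It was at 4.0, 1.70 and 1.12 RPKM in the libraries labelled EC, 3.66, 5.84 and 5.83 in EE and 4.44, 5.62 and 7.94 in those labelled Sox100B-OE. In Sox100B-RNAi it was at 0.0121, 0.0816 and 0.0221 RPKM, which is 2, 12 and 4 implied reads. The Sox100B-RNAi libraries were below all other libraries, and EE and labelled Sox100B-OE overlapped at the top.

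The perlecan gene trol (FBgn0261451, X, 2470460 to 2545427, minus strand) moved in its own way. It was at 14.4, 12.0, 7.55, 16.1 and 13.6 RPKM in progenitors, 12.3, 7.89 and 9.51 in the libraries labelled EC, 7.70, 8.99 and 9.24 in EE and 13.1, 14.2 and 21.0 in Sox100B-RNAi. In the libraries labelled Sox100B-OE it was at 4.46, 4.08 and 4.38 RPKM, under all other libraries, and the other 4 groups overlapped in sequence. No member except mew (107 bases with CG15742) and trol (23 bases with mir-4955) shares exonic bases with another annotated gene, and the shared bases are 2.06 and 0.111% of their exonic length.

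Groups were compared with limma on log2(RPKM + 1), a scale that understates the change of low genes. A gene was called at a Benjamini-Hochberg adjusted p below 0.01 over all features tested together with an absolute log2 fold change above 0.5, and a feature was tested where 3 or more libraries of the comparison reached an RPKM of 1. Errors of log2 fold changes are standard errors (SE). The labels do not say that replicates came from separate animals or sorts, so the p-values measure only the spread between these libraries. The 4 comparisons with progenitors share the same 5 progenitor libraries and are not independent of each other. In bulk RNA from sorted cells, fewer cells of a type and less RNA per cell cannot be told apart.

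EE had less RNA of all 3 laminin chains and of 3 integrin subunits than progenitors. Of the 8 members that passed the filter, 6 were called lower and 0 higher, where 34.6% of all 8161 features tested were called (20.1% higher and 14.5% lower). The other 2 members, if and vkg, were not tested. LanA differed most, at 4.52 times the EE level in progenitors and a log2 fold change of -2.08 ± 0.17 (limma, adjusted p = 8.21e-06). LanB1 followed at -1.87 ± 0.17 (adjusted p = 1.84e-05) and LanB2 at -1.58 ± 0.17 (adjusted p = 5.11e-05). All 3 chains of the trimer were therefore lower in EE, by 3.64 to 4.52 times in the mean RPKM.

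The receptor genes fell less. The log2 fold change in EE was -1.40 ± 0.27 for mys (adjusted p = 0.00212), -1.50 ± 0.37 for mew (adjusted p = 0.00731) and -1.10 ± 0.15 for scb (adjusted p = 2.34e-04). The groups did not overlap for any of these 6 genes, as was the case for 50.4% of all features tested. The call of mys was lost without EE replicate 2 or EE replicate 3 (highest adjusted p 0.0161) and that of mew without any of 5 single libraries, progenitor replicates 2, 3 and 5 and EE replicates 1 and 2 (highest adjusted p 0.0407), as well as with no filter and with progenitor replicates 1 to 3 or 4 and 5 alone, while scb and the laminin chains kept theirs under all 20 alternatives. The calls of all features were 1640 higher and 1183 lower, and quantile normalization turned this split to 1458 and 1729 without changing the direction of a member called.

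Collagen IV and perlecan did not follow the laminins. Col4a1 had 3.72 times the progenitor mean in EE, a log2 fold change of 1.51 ± 0.41 that missed the threshold (adjusted p = 0.0122), and passed it with median-of-ratios scaling (1.55 ± 0.39, adjusted p = 0.00897). Of the progenitors only replicates 4 and 5 reached 1 RPKM of Col4a1. It therefore passed the filter only with the EE libraries, where it was high, and neither result is support. For trol the value was -0.48 ± 0.23 (adjusted p = 0.112). Genes of other cell types differed between these groups too. The summed RPKM of 6 hemocyte genes was 3.64, 12.2 and 4.23 in EE and overlapped that of progenitors (2.83 to 5.40). Of these genes srp, Sr-CI and Hml overlapped between the groups, and He was at 0 in EE replicate 1 as in the progenitors. NimC1 and eater were above all progenitor libraries. Hml, NimC1, eater and He, set apart after their values were seen, summed to 0.955, 6.09 and 1.46 in EE and 0.0106 to 0.787 in progenitors. The 10 visceral muscle genes summed to 7.84 to 11.3 against 1.39 to 3.12, most of it in EE from up (5.88 to 8.89 RPKM). Of these genes Mhc, Mlc2, Tm2, bt, sls, Prm and Mf overlapped between the groups. The 5 fat body genes summed to 12.7 to 17.8 against 1.25 to 4.01, most of it in EE from the lipophorin gene apolpp (11.4 to 15.8 RPKM), while Fbp1 was at 0 in all EE libraries. EE replicate 2, highest in the hemocyte genes, was highest in vkg as well but level with replicate 3 in Col4a1, and the part of such cells in the collagen values was not tested.

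**Figure D2:**
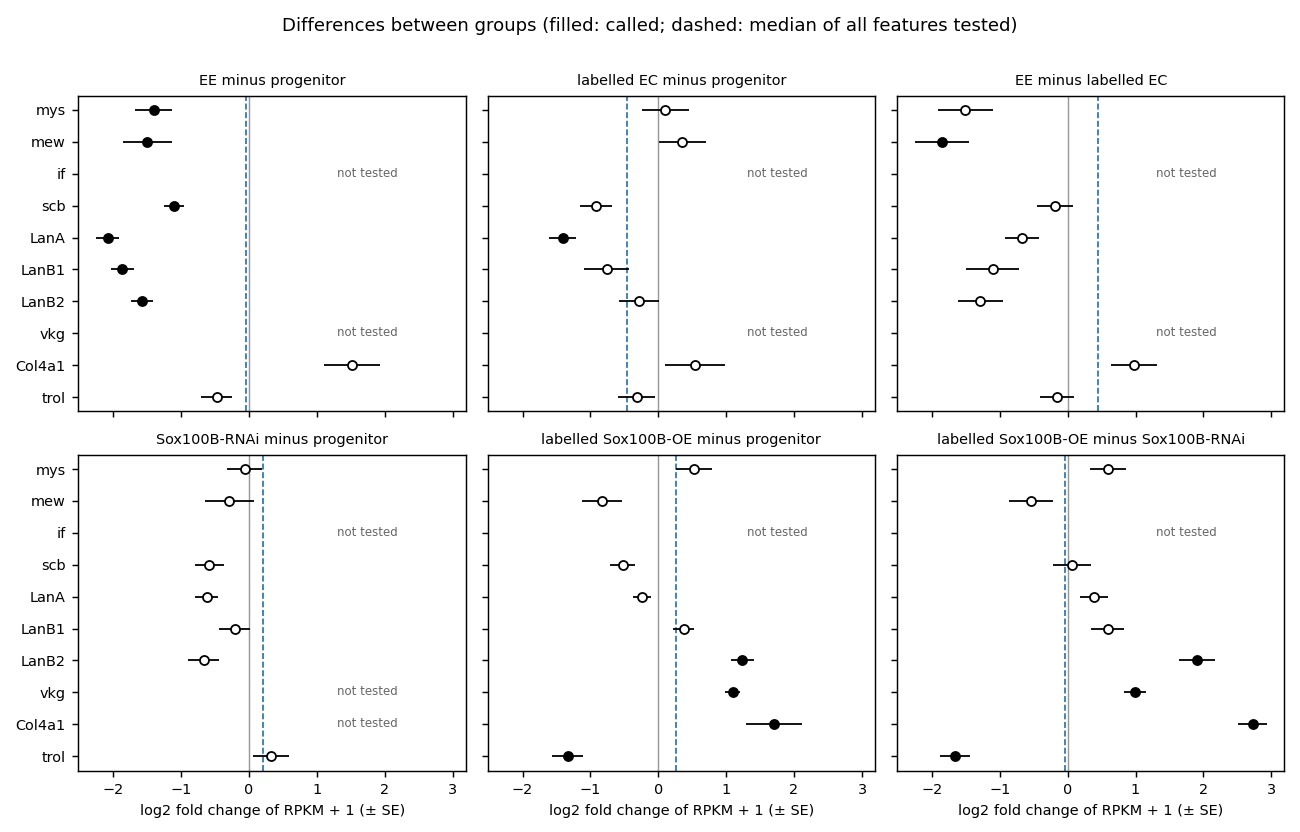
Log2 fold change of RPKM + 1 (x axis, with SE) of each gene in the 6 comparisons; filled points were called, open points were tested and not called, and the dashed line is the median of all features tested. In EE against progenitors 6 genes are called lower, and both comparisons of the libraries labelled Sox100B-OE have LanB2, vkg and Col4a1 higher and trol lower. In these, vkg in both and Col4a1 against Sox100B-RNAi passed the filter through the higher group alone. Against progenitors Col4a1 passed it only with the higher group, in EE and in the libraries labelled Sox100B-OE, so none of these points is support.

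The libraries labelled EC differed from progenitors in 1 member. LanA was called lower, at -1.41 ± 0.20 (limma, adjusted p = 0.00108), and the other 7 members tested were not called. The background was 20.0% of 7762 features called, 3.56% higher and 16.5% lower. The median of all features was itself at -0.46 in this comparison and moved to -0.05 with median-of-ratios scaling, which also turned the split of calls from 276 higher and 1280 lower to 517 and 423. On that scale LanA was at -0.93 ± 0.19 and still called (adjusted p = 0.00677), and its call was lost with progenitor replicates 4 and 5 alone. The next gene, scb, was at -0.92 ± 0.23 as deposited (adjusted p = 0.0110) but at -0.42 after rescaling. LanB1 was at -0.76 ± 0.34 (adjusted p = 0.0872), with labelled EC replicate 3 inside the progenitor range.

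Set directly against the libraries labelled EC, EE had less mew. Its log2 fold change was -1.85 ± 0.40 (limma, adjusted p = 0.00536), and it was the only one of 8 members tested that was called, against 32.7% of 7847 features (26.5% higher and 6.22% lower). The call was lost without labelled EC replicate 1 or 2 or EE replicate 1 or 2 (highest adjusted p 0.0272). For mys (-1.51 ± 0.40, adjusted p = 0.0142), LanB2 (-1.29 ± 0.33, adjusted p = 0.0121), LanB1 (-1.11 ± 0.39, adjusted p = 0.0440) and LanA (-0.67 ± 0.25, adjusted p = 0.0506) the EE libraries were also below all libraries labelled EC without passing the threshold. Groups did not overlap, in either direction, for 59.9% of the features tested. The median of all features was 0.45 here and 0.06 with median-of-ratios scaling, under which all features were called 1417 higher and 873 lower in place of 2080 and 488. On that scale mys, mew, LanA, LanB1 and LanB2 were called lower in EE, at -1.97, -2.29, -1.11, -1.53 and -1.67.

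Depletion of Sox100B went with no called member. Of the 7 tested against progenitors 0 passed, where 25.3% of 8675 features did (23.0% higher and 2.26% lower), and 3 members, all lower, were at an unadjusted p below 0.05. That share depended on the features used. Among rescaled nuclear genes without shared exonic bases, 183 of 4684 features were called (137 higher and 46 lower). The lowest adjusted p was that of LanA (limma, log2 fold change -0.63 ± 0.17, adjusted p = 0.0148), followed by LanB2 (-0.67 ± 0.23, adjusted p = 0.0486). In both genes all Sox100B-RNAi libraries lay under all progenitor libraries, while 35.3% of the features tested had groups that did not overlap in either direction. With median-of-ratios scaling, which moved the median of all features from 0.20 to 0.02, LanA (-0.83 ± 0.15, adjusted p = 0.00152) and LanB2 (-0.86 ± 0.20, adjusted p = 0.00763) were called, and quantile normalization turned the 1995 higher and 196 lower calls to 1440 and 1373.

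The integrin subunits mys, mew and scb stood at -0.07 ± 0.25, -0.29 ± 0.36 and -0.58 ± 0.22, and trol at 0.33 ± 0.26, none called. Col4a1 was too low in both groups to be tested under the filter. Without a filter its log2 fold change was -1.02 with an adjusted p of 0.122, although the Sox100B-RNAi mean of 0.0386 RPKM rested on 18 implied reads over 3 libraries. The spread among progenitors, in which replicates 1 to 3 were at 0.261 to 0.753 RPKM and replicates 4 and 5 at 2.58 and 2.97, is part of that test.

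The libraries labelled Sox100B-OE differed from Sox100B-RNAi, which was processed alike, in 4 members. LanB2, vkg and Col4a1 were called higher and trol lower, of 9 tested, where 16.0% of 8848 features were called (10.5% higher and 5.56% lower). No Sox100B-RNAi library reached 1 RPKM of vkg or Col4a1, so these passed the filter on low values only through the group in which they were high, and their calls are no support; of the other 7 members tested, 1 was called higher and 1 lower. LanB2 was 4.05 times as high in the mean (limma, log2 fold change 1.91 ± 0.26, adjusted p = 9.80e-04). trol was 3.74 times lower (-1.66 ± 0.22, adjusted p = 7.52e-04). Both calls were kept under all alternatives in which the gene could be fitted, 16 and 15 in number, whereas without any 1 library labelled Sox100B-OE the collagen genes no longer passed the filter and 2 members were called. Calls of all features were 927 higher and 492 lower and became 490 and 406 among rescaled nuclear genes without shared exonic bases.

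The collagen IV chains are described here without a test. For Col4a1, summed over the group, 2146 implied reads in 59.0 M stood against 18 in 80.0 M, a ratio of 162 with an exact 95% interval of 102 to 273 that covers counting error only. Of the 18 reads 12 came from Sox100B-RNAi replicate 2, and in an alternative chosen after seeing the data the ratio was 340.3 without that library and 121 to 187 without any other. For vkg the means differed 7.52-fold. The 6 hemocyte genes summed to 4.05 to 5.54 RPKM in the libraries labelled Sox100B-OE and 4.53 to 8.20 in Sox100B-RNAi, with srp at 3.5 to 5.17 against 1.48 to 5.23 and Sr-CI at 0.288 to 0.437 against 2.70 to 6.18. Of the other lists, 5 fat body genes were at 2.47 to 3.69 against 0.859 to 1.08 RPKM and 10 muscle genes at 3.90 to 6.02 against 0.825 to 1.02. The muscle genes bt (1.61 to 2.20 against 0.0987 to 0.172 RPKM), up, Mlc2, Tm2 and sls were above all Sox100B-RNAi libraries. Mhc (0.0381 to 0.0472 against 0.0278 to 0.0492), Mlc1, Prm, Mf and Act57B overlapped. The part of hemocyte, fat body and muscle RNA in the collagen difference was not tested.

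**Figure D3:**
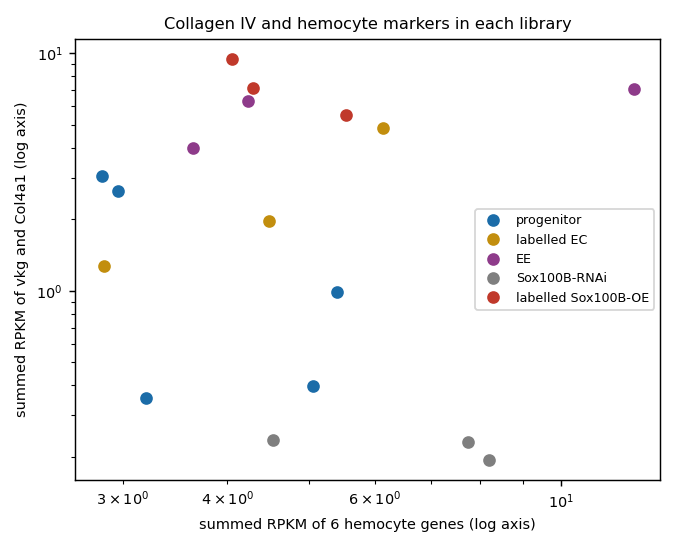
Summed RPKM of vkg and Col4a1 (y axis, log) against summed RPKM of the 6 hemocyte genes (x axis, log) in each of the 17 libraries, coloured by group. EE replicate 2 is highest on the x axis at 12.2, and the libraries labelled Sox100B-OE combine collagen IV sums of 5.51 to 9.43 with hemocyte sums of 4.05 to 5.54, inside the range of the other groups.

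Against wild type progenitors the libraries labelled Sox100B-OE had LanB2, vkg and Col4a1 called higher and trol lower, 4 of 9 members tested, where 33.7% of 8918 features were called (28.9% higher and 4.83% lower). Among rescaled nuclear genes without shared exonic bases, 679 of 4830 features were called (435 higher and 244 lower), and 2 of 7 members. LanB2 was at 1.24 ± 0.16 (limma, adjusted p = 2.00e-04) and trol at -1.34 ± 0.23 (adjusted p = 9.71e-04), and both kept their calls under all alternatives that could be fitted. For vkg no progenitor library exceeded 0.240 RPKM, so it passed the filter only through the group in which it was high and its call is no support. Its means were 1.37 and 0.108 RPKM, 12.7-fold apart. Of the other 8 members tested 2 were called higher, LanB2 and Col4a1, and 1 lower, trol. Col4a1 was at 1.70 ± 0.42 (adjusted p = 0.00846), and lost its call under 12 of 20 alternatives, among them leaving out progenitor replicate 1, 2 or 3 or any library labelled Sox100B-OE (highest adjusted p 0.0514). Of the progenitors only replicates 4 and 5 reached 1 RPKM of Col4a1, so it passed the filter only with the group in which it was high. Its call is no support either, which leaves LanB2 as the member called higher. Median-of-ratios scaling moved the median of all features from 0.26 to 0.01 and the calls from 2578 higher and 431 lower to 2127 and 937, and it left LanB2 at 0.95 and trol at -1.60. These libraries lie within the whole range of the progenitors in Sox100B, so the direction is that of the labelled groups and not of a measured rise of the gene.

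The integrin subunits were not called in either comparison of the libraries labelled Sox100B-OE. Against progenitors the log2 fold changes were 0.53 ± 0.26 for mys, -0.83 ± 0.30 for mew (adjusted p = 0.0465) and -0.52 ± 0.19 for scb (adjusted p = 0.0440). LanA was at -0.24 ± 0.13 and LanB1 at 0.38 ± 0.15. Of these, mew was below and LanB1 above all progenitor libraries, while 46.9% of the features tested had groups that did not overlap in either direction. Against Sox100B-RNAi, LanA was at 0.39 ± 0.20 (adjusted p = 0.194) and LanB1 at 0.59 ± 0.24 (adjusted p = 0.102), each with all libraries labelled Sox100B-OE above all Sox100B-RNAi libraries, where groups did not overlap in either direction for 45.5% of the features tested.

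Subunits of a single complex did not keep 1 proportion. Ratios within a library do not depend on how libraries were scaled to each other and are given without a test. The ratio of LanB1 to LanB2, which occur in equal number in every laminin trimer, was 2.02 to 3.09 in progenitors, 1.45 to 2.26 in the libraries labelled EC and 1.98 to 2.40 in EE. It was 3.00 to 4.08 in Sox100B-RNAi and 1.11 to 1.58 in the libraries labelled Sox100B-OE. The Sox100B groups thus stood at the ends with progenitors between them, and only Sox100B-RNAi overlapped the progenitor range.

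LanA to the mean of the other chains was 1.93 to 2.61 in progenitors and 1.72 to 2.18 in EE, although the level of all 3 chains differed by 3.64 to 4.52 times between these groups. In the libraries labelled Sox100B-OE it was 1.02 to 1.35, below both. In those labelled EC it was 0.792 to 2.17, a range that spans that of Sox100B-OE. Among the receptors, mew to mys was 0.0646 to 0.0770 in the libraries labelled Sox100B-OE, under the lowest value of any other library (0.0969). The ratio of scb to mys was 0.376 to 0.425 in the libraries labelled Sox100B-OE and 0.602 to 1.32 in progenitors. In those labelled EC it was 0.267 to 0.857, which spans the Sox100B-OE range. The 3 alpha subunits together reached 0.443 to 0.504 of the mys level in the libraries labelled Sox100B-OE, 0.723 to 1.6 in progenitors and 0.835 to 1.49 in EE. They reached 0.438 to 1.12 in those labelled EC, so only the low mew to mys ratio was particular to Sox100B-OE among these. Between the alpha chains, scb exceeded mew in every library, and the median ratio was 5.07 in progenitors, 6.01 in EE and 1.59 in the libraries labelled EC.

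**Figure D4:**
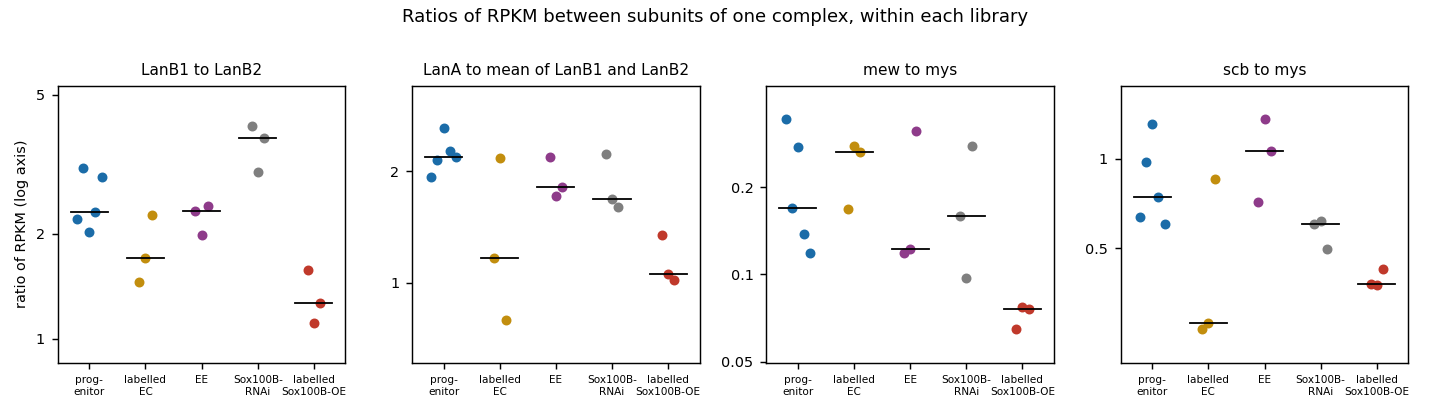
Ratio of RPKM between subunits within each library (log axes), with a line at the group median. The LanB1 to LanB2 ratio is 3.00 to 4.08 in Sox100B-RNAi and 1.11 to 1.58 in the libraries labelled Sox100B-OE, and the mew to mys ratio of the latter is below that of every other library.

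The chains of collagen IV form a trimer of both gene products, yet vkg stayed well under Col4a1. The ratio of vkg to Col4a1 was 0.0223 to 0.365 in progenitors, 0.0763 to 0.216 in EE and 0.187 to 0.277 in the libraries labelled Sox100B-OE. Only in Sox100B-RNAi was it above 1, at 1.90 to 15.2, where vkg had 24 to 40 implied reads and Col4a1 had 2 to 12. The divergent neighbours therefore differed in their spread, with Col4a1 spanning 0.0121 to 7.94 RPKM over the 17 libraries and vkg 0.0574 to 1.56.

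The other genes of integrin adhesion and of the matrix were taken as a list of 35, of which 34 were found. In EE against progenitors 5 were called higher and 7 lower of 28 tested, beside 20.1 and 14.5% of all features. Of the 12, Ndg, wb and Loxl1 reached 1 RPKM in no library of the lower group, so they passed the filter only through the group in which they were high and are given by their levels, with no test. Ndg, which encodes nidogen, a linker of laminin and collagen IV networks, was at 2.64, 4.45 and 4.15 RPKM in EE and 0.10 to 0.177 in progenitors. The matrix metalloproteinase gene Mmp2 was called higher in EE (limma, log2 fold change 1.54 ± 0.20), as were SPARC, whose product binds collagen IV (1.83 ± 0.37), the collagen prolyl hydroxylase gene PH4alphaEFB (1.11 ± 0.20) and Zasp52 (0.84 ± 0.20), a scaffold of integrin junctions. Fewer than 3 progenitor libraries reached 1 RPKM of SPARC, so it passed the filter only with the EE libraries. SPARC was high in EE, and its call is no support. SPARC in EE was 2.54, 12.8 and 6.83 RPKM, and its call was lost without EE replicate 2 or EE replicate 3 (highest adjusted p 0.0169). That of PH4alphaEFB was lost without EE replicate 2 (adjusted p = 0.0103), and that of Zasp52 without progenitor replicate 1, 2, 3 or 4 or any EE library (highest adjusted p 0.0394). SPARC also lost it with progenitor replicates 1 to 3 or 4 and 5 alone, and Zasp52 with no filter, among rescaled nuclear genes and with progenitor replicates 4 and 5 alone.

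The other laminin alpha chain, wb, was at 0.292 to 0.477 RPKM in EE and 4.11 to 8.62 in progenitors. Of the integrin adhesion complex, rhea, which encodes talin (-1.75 ± 0.21), Vinc, which encodes vinculin (-1.64 ± 0.30), and Pax, which encodes paxillin (-1.78 ± 0.22), were lower. The remaining tested calls were Timp (-1.71 ± 0.36), an inhibitor of matrix metalloproteinases, and Mmp1 (-0.93 ± 0.19). Timp and Mmp1 lost their call without any 1 of the EE libraries (highest adjusted p 0.0199 and 0.0230), and Vinc without EE replicate 2 or 3 (0.0115). Mmp1 also lost it in 1 fit of all 17 libraries.

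In the libraries labelled EC, 0 genes of the list were called higher (1, Sdc, was at an unadjusted p below 0.05) and 8 lower of 27 tested, beside 3.56 and 16.5% of all features and a median of all features of -0.46. The calls were rhea (-1.91 ± 0.26), parvin (-1.45 ± 0.32), Fit1, a kindlin (-1.42 ± 0.32), Ilk (-1.36 ± 0.29), Zasp52 (-1.34 ± 0.23), stck, which encodes the PINCH protein (-1.23 ± 0.26), and Fak (-1.09 ± 0.20), all of the integrin adhesion complex as listed (12 tested), and wb (-1.40 ± 0.31). Ilk, for example, was at 58.9 to 99.8 RPKM in progenitors and at 25.9, 23.7 and 44.1 in the libraries labelled EC. With median-of-ratios scaling only rhea (-1.47) and Zasp52 (-0.99) of these stayed called, quantile normalization ended the same 6 calls, and with no filter wb, Ilk, stck, parvin and Fit1 lost theirs. Leaving out labelled EC replicate 1 or 2 ended every one of these calls except that of rhea (highest adjusted p 0.0321, for parvin), and wb also lost its call without replicate 3. Leaving out progenitor replicate 1 ended those of wb, Ilk, stck, parvin and Fit1, progenitor replicate 2 those of Ilk, parvin and Fit1, replicate 3 those of wb and Fit1, replicate 4 those of stck, parvin and Fit1, and replicate 5 those of wb, stck and parvin. With progenitor replicates 4 and 5 alone every call except that of rhea was lost, and with replicates 1 to 3 alone those of wb, stck, parvin, Fak and Fit1. Beside these, mys and mew were at 0.10 ± 0.34 and 0.35 ± 0.34 in the libraries labelled EC, not called.

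EE against the libraries labelled EC had 4 genes of the list higher (Ndg, Mmp2, Zasp52 and by, the tensin gene) and 4 lower (wb, Vinc, Pax and Loxl1) of 27 tested, beside 26.5 and 6.22% of all features. Ndg, Mmp2, wb and Loxl1 reached 1 RPKM in no library of the lower group, so their calls are no support. The call of by was kept under 9 of 16 alternatives and was lost with each of the 3 other scalings and without any 1 of the EE libraries. Vinc was at 8.69 RPKM in the mean of EE and 44.5 in that of the libraries labelled EC (-2.22 ± 0.26), and Pax at 3.23 and 14.2 (-1.84 ± 0.24). The vinculin and paxillin genes were thus lower in EE beside mew, whereas talin (rhea) was at 4.69 to 6.26 RPKM in EE and 3.51 to 5.72 in the libraries labelled EC.

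In Sox100B-RNAi against progenitors 2 genes of 27 tested were called higher and 1 lower, beside 23.0 and 2.26% of all features. Of 4684 rescaled nuclear genes without shared exonic bases, 137 were called higher and 46 lower. wb was at 2.22, 1.63 and 1.37 RPKM, below all progenitor libraries (log2 fold change -1.50 ± 0.26, adjusted p = 0.00121). dlp, a glypican gene, was higher (0.98 ± 0.18). Tsp, which encodes thrombospondin, an integrin ligand of muscle attachment sites, was called higher as well (1.52 ± 0.28). Only progenitor replicate 4 reached 1 RPKM of Tsp (1.06), so it passed the filter only with Sox100B-RNAi. Tsp was high in that group, and its call is no support. The calls of wb and Tsp were lost without Sox100B-RNAi replicate 2 or Sox100B-RNAi replicate 3, and that of dlp without Sox100B-RNAi replicate 1 or 2, with a highest adjusted p of 0.0157, 0.0208 and 0.0281. Quantile normalization also ended the calls of Tsp (0.94) and dlp (0.23), as did progenitor replicates 4 and 5 alone, and dlp was not called among rescaled nuclear genes.

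The libraries labelled Sox100B-OE had the largest changes of the list. Against Sox100B-RNAi 8 genes were called higher and 1 lower of 27 tested, beside 10.5 and 5.56% of all features. SPARC was at 91.3, 106 and 198 RPKM against 0.309, 1.12 and 0.396, and at 0.760 to 1.64 in progenitors. Only replicate 2 of Sox100B-RNAi reached 1 RPKM, so SPARC passed the filter only with the group in which it was high. Its call here (log2 fold change 6.32 ± 0.33) is therefore no support. Mp, which encodes multiplexin, a collagen XV/XVIII chain, was at 13.5, 14.0 and 14.7 against 1.91, 2.69 and 1.18 RPKM (2.40 ± 0.23), and wb at 9.54, 8.92 and 6.63 (1.77 ± 0.21). Of these, wb overlapped progenitors (4.11 to 8.62 RPKM) and was not called against them (0.27 ± 0.26), whereas Mp was called higher against both groups. The call of SPARC against progenitors is no support either, since only progenitor replicates 1 and 4 reached 1 RPKM of it.

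Remodelling genes and a further laminin receptor were higher in the same comparison. Mmp1 was at 189, 105 and 127 RPKM in the libraries labelled Sox100B-OE and 36.6, 50.3 and 19.6 in Sox100B-RNAi (2.01 ± 0.36), Timp rose by 1.66 ± 0.20, the collagen lysyl hydroxylase gene Plod by 1.12 ± 0.19 and Vinc by 1.09 ± 0.24. The dystroglycan gene Dg, a receptor for laminin and perlecan, was at 57.3, 46.6 and 40.8 against 20.1, 17.9 and 14.7 RPKM (1.41 ± 0.22). Tsp was at 0.00870 to 0.0426 against 1.81 to 5.0 RPKM, and it passed the filter only through Sox100B-RNAi, where it was high, so its call lower is no support. The call of Dg was lost without replicate 1 or 2 labelled Sox100B-OE (highest adjusted p 0.0125), that of Plod without any of these 3 libraries (0.0243), that of Mmp1 without replicate 1 or 3 of them or Sox100B-RNAi replicate 3 (0.0194) and that of Vinc without any of them or Sox100B-RNAi replicate 1 or 3 (0.0497). With no filter Plod, Mmp1 and Vinc were not called, and Vinc kept its call under 5 of 16 alternatives.

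Against progenitors the libraries labelled Sox100B-OE had 9 genes of the list higher and 1 lower of 26 tested, beside 28.9 and 4.83% of all features. Of 4830 rescaled nuclear genes without shared exonic bases, 435 were called higher and 244 lower, and 6 genes of the list were called. SPARC (5.94 ± 0.27), Mmp1 (2.77 ± 0.23), Mp (2.22 ± 0.33), dlp (1.81 ± 0.15), Dg (1.56 ± 0.15), Plod (1.40 ± 0.15), parvin (1.47 ± 0.23) and p130CAS, a scaffold of integrin signalling (1.08 ± 0.15), kept their calls under all alternatives that could be fitted. Fewer than 3 progenitor libraries reached 1 RPKM of SPARC, so it passed the filter only with the group in which it was high, and its call is no support. The call of stck (0.88 ± 0.22) was lost without progenitor replicate 1, 2, 4 or 5 or any library labelled Sox100B-OE (highest adjusted p 0.0534) and was kept under 7 of 19 alternatives, and that of Fak, the gene called lower (-0.79 ± 0.14), without replicate 2 or 3 labelled Sox100B-OE (0.0215). The difference in processing between the wild type and the Sox100B columns bears on these values and not on those against Sox100B-RNAi.

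**Figure D5:**
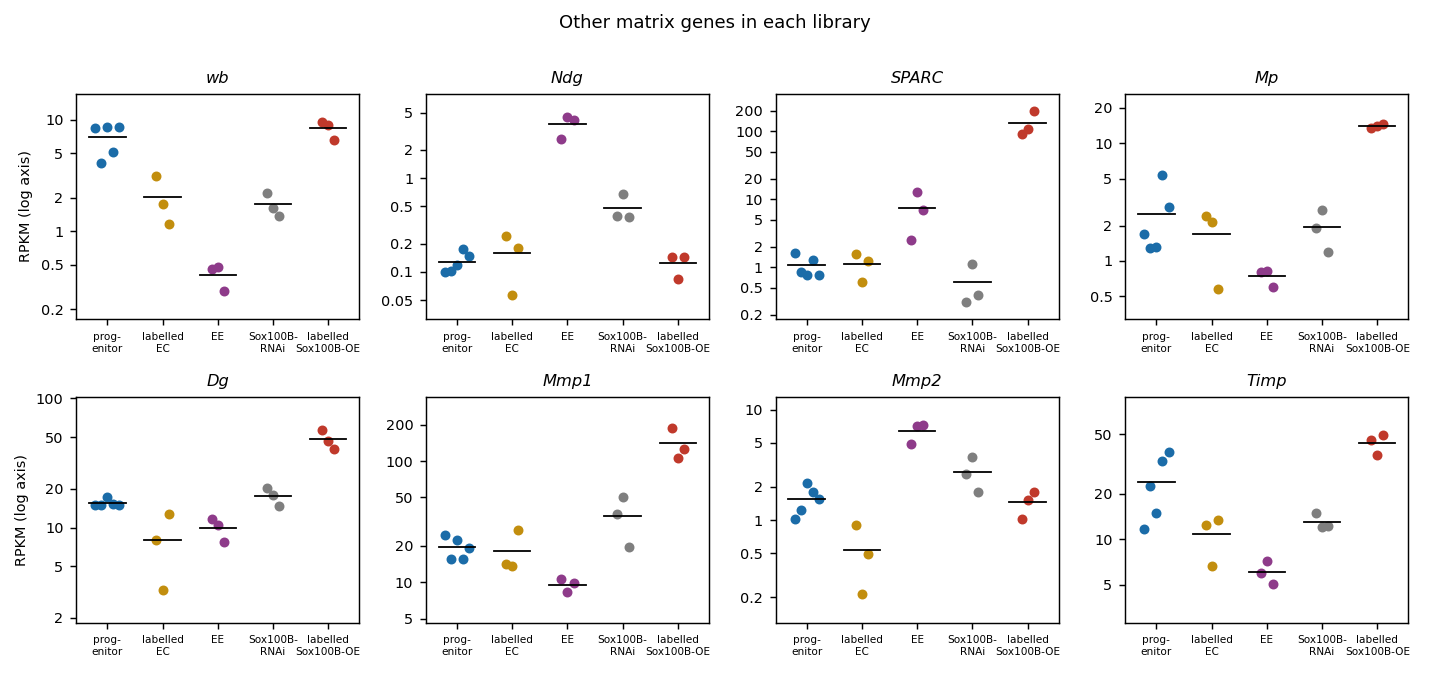
RPKM (log axes) of 8 further matrix genes in the 17 libraries, with a line at each group mean. SPARC reaches 91.3 to 198 RPKM in the libraries labelled Sox100B-OE, Ndg is highest in EE at 2.64 to 4.45, and wb is lowest in EE.

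Of the list, Sdc, which encodes the proteoglycan syndecan, was abundant and called in no comparison. It was at 44.6 to 87.7 RPKM in progenitors, 69.5 to 162 in the libraries labelled EC, 43.1 to 76.3 in EE, 35.2 to 48.4 in Sox100B-RNAi and 34.1 to 49.1 in those labelled Sox100B-OE. The second beta integrin gene Itgbn was at 4.47 to 16.9 RPKM over all libraries, well under mys, and ItgaPS4, which lies beside scb, at 0.751 to 7.02. Neither was called in a comparison, and ItgaPS5 never exceeded 0.254 RPKM.

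The features with the most similar pattern to mys, LanB1 and vkg were sought among 5489 features without shared exonic bases, by the mean absolute difference of the 5 group means of log2(RPKM + 1) after each gene was centred. For mys they were Fim at a distance of 0.10, eIF4A at 0.13 and CG17002 at 0.13. For LanB1 they were Mctp, betaTub97EF and Cyp6a20 at 0.06, 0.06 and 0.07, and for vkg wech, CG44836 and Gtpx at 0.04, 0.07 and 0.08. LanA was at 0.22 from LanB1, place 26 among those features, and LanB2 at 0.37, place 225. Col4a1 was far from mys and LanB1, at 1.07 and 1.16.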

How the data were processed

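The deposited table holds 1 RPKM column per library for 17490 features. Per the labels, cells were sorted and their RNA amplified, which can alter the relative level of genes, and its part was not tested. The submitters' processing notes name BDGP6, STAR, featureCounts 1.6.3 and DESeq2 without roles. The read total that the authors divided the RPKM by is not given in the sources used here. One feature missing from the wild type columns was dropped (1 of 17490). Groups were taken from titles and genotype labels. The 10 genes, the 35 other pathway genes, the marker lists and the rule for named genes (all members, pathway genes called among wild type groups or reaching 50 RPKM, those called in Sox100B groups, and the 3 nearest patterns to mys, LanB1 and vkg) were chosen with earlier results of these data known. Pathway genes called only in the Sox100B comparisons were named after their values were seen.

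RPKM values were multiplied by the exonic length (Ensembl 115). Of the low values, 98.3 to 99.0% were then whole multiples of 1 step within 0.05, which gave implied reads and totals for describing depth. RPKM are no counts, so limma 3.58.1 in R 4.3.3 was run on log2(RPKM + 1), with a pseudocount of 1 (lmFit, eBayes with a trend, 2-sided, Benjamini-Hochberg adjustment over all features tested), on the libraries of each comparison, with thresholds after the study's methods. The procedure was tested on simulated data. Intervals cover counting error only. The alternatives comprised a pseudocount of 0.1, omitting the filter or raising it to 3.5 RPKM, median-of-ratios scaling, quantile normalization, rescaled nuclear genes without shared exonic bases, 1 fit over the 17 libraries together, the replicate number as a block, array weights, an adjusted p below 0.05, leaving out each library, and progenitor replicates 1 to 3 or 4 and 5 alone. No promoter or protein sequence was used here.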

Additional observations from a re-analysis of the deposited data

Results flagged for a closer look

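In the group of 5 progenitor libraries, 6 of the 44 genes examined had 1 library far from the other 4, a gap over 0.71 of the whole range. That limit gives about 1 in 20 for independent, normally distributed values. RPKM of these genes were not shown to be so, and in all 6 the far library was the highest, so no excess is claimed. In progenitor replicate 1 the highest values were 43.8 RPKM for mew, 0.240 for vkg and 0.650 for Ppn, which encodes papilin. The 6 hemocyte genes of this replicate summed to 5.40 RPKM and those of the other 4 to 2.83 to 5.06. Ppn was at 0.658, 5.82 and 1.43 RPKM in EE and at most 0.120 in all libraries other than EE and progenitor replicate 1, and the part of hemocytes in these values was not tested. Progenitor replicate 3 was highest in Dg (17.4 RPKM) and rhea (30.9 RPKM), and progenitor replicate 4 in PH4alphaEFB (8.02 RPKM). Without progenitor replicate 1 the call of mew in EE was kept, and that of Col4a1 in the libraries labelled Sox100B-OE against progenitors was lost.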

How the results depend on the processing

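The number of members called changed with the settings as follows, and the cause was not tested. For the libraries labelled EC against progenitors it was 1 as reported, 2 among rescaled nuclear genes, in 1 fit of all 17 libraries and at an adjusted p below 0.05, 3 with array weights and 0 with progenitor replicates 4 and 5 only. For EE against the libraries labelled EC it was 1 as reported, 0 without a filter, 5 with median-of-ratios scaling, quantile normalization, the 17-library fit or an adjusted p below 0.05, and 4 with array weights. For Sox100B-RNAi against progenitors it was 0 as reported, 2 with either scaling or an adjusted p below 0.05 and 1 in the 17-library fit. For the libraries labelled Sox100B-OE against progenitors it was 4 as reported and 2 with median-of-ratios scaling or rescaled nuclear genes. With each library left out in turn, the counts ran from 4 to 7 (EE against progenitors, 6 as reported), 1 to 2 (labelled EC against progenitors), 0 to 2 (EE against labelled EC), 0 to 0 (Sox100B-RNAi), 2 to 4 (labelled Sox100B-OE against progenitors) and 2 to 4 (labelled Sox100B-OE against Sox100B-RNAi).

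Direction changed only for members not called, in 22 values. Against progenitors in the libraries labelled EC, mys (0.10) became -0.016 among rescaled nuclear genes, -0.17 with progenitor replicates 4 and 5 only and -0.21 to 0.49 with single libraries left out. LanB2 (-0.29) became 0.16 and 0.19 with median-of-ratios and quantile scaling and -0.51 to 0.079 with single libraries left out, trol (-0.32) became 0.14 and 0.13 with these scalings, and Col4a1 (0.54) became -0.30 with progenitor replicates 4 and 5 only. In Sox100B-RNAi, mys (-0.07) became 0.12 with the replicate block or progenitor replicates 1 to 3 only and -0.22 to 0.070 with single libraries left out. There mew (-0.29) ran from -0.53 to 0.079 with single libraries left out and became 0.0053 with progenitor replicates 4 and 5 only, and trol (0.33) became -0.21 with quantile normalization. In the libraries labelled Sox100B-OE, LanB1 became -0.041 against progenitors with quantile normalization, and scb against Sox100B-RNAi (0.06) became -0.075 among rescaled nuclear genes and -0.011 with array weights and ran from -0.17 to 0.26 with single libraries left out.

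Replicate numbers were not used as pairs, since the correlation of deviations between same-numbered libraries was under 0.1 for at least 1 number in each comparison. Between the Sox100B groups it was 0.335 and 0.160 for numbers 1 and 3, each the best match, and 0.0314 for number 2. Whether same-numbered libraries shared a batch was not tested. With the replicate number as a block, 7 members were called in EE against progenitors, 0 in the libraries labelled EC, 2 in EE against those, 0 in Sox100B-RNAi, and 4 in both comparisons of the libraries labelled Sox100B-OE, and all calls in the libraries labelled EC against progenitors dropped from 1556 to 63, with that of LanA among those lost. The call of dlp in Sox100B-RNAi was lost too. Over all alternatives the calls of all features ran from 1460 to 3984 in EE against progenitors, 63 to 3412 for labelled EC, 912 to 4472 for EE against labelled EC, 183 to 2969 for Sox100B-RNAi, 679 to 4080 for labelled Sox100B-OE against progenitors and 509 to 2561 against Sox100B-RNAi. Those of the pathway list ran from 4 to 19, 0 to 11, 3 to 15, 0 to 5, 6 to 13 and 5 to 13. The filter on RPKM left if untested in all comparisons, and Col4a1 in Sox100B-RNAi rested on 2 to 12 implied reads per library. The pooled read ratio of Col4a1 between the Sox100B groups ran from 121 to 340.3 with single libraries left out, an alternative chosen after seeing the data.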
